A study of Mus musculus with 15 samples.

Results

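The genes described here encode 10 enzymes that make serine, one-carbon units and asparagine. Phgdh, Psat1 and Psph form the serine synthesis pathway, Shmt1 and Shmt2 split serine into glycine and a one-carbon unit, and Mthfd2, Mthfd1l and Aldh1l2 process that unit in mitochondria. Pck2 feeds carbon towards serine and Asns makes asparagine. The genes were listed by symbol for these roles, with earlier results of these data known. All 10 were found among the 24982 gene symbols of the count tables, and all 10 passed the filter on low counts that left 15696 genes for testing.

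Serine is made from the glycolytic intermediate 3-phosphoglycerate, and its one-carbon unit is carried by folate to purines, thymidylate and, through methionine, to methyl donors. The same reactions exist in the cytosol and in mitochondria with different enzymes, so a cell can send serine carbon by either route. Most of these genes are known targets of ATF4, the transcription factor that cells make when amino acids are short or the integrated stress response is active. Mouse embryonic stem cells (ESCs) are known for a high demand for one-carbon units while they divide rapidly.

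The series holds poly(A) RNA sequencing of 15 libraries from the mouse ESC line E14TG2 during its conversion to epiblast-like cells (EpiLCs), which resemble the epiblast shortly after implantation. The groups, with 3 libraries each, were d2-Atg7 KO and d4-Atg7 KO (Atg7 knockout cells at days 2 and 4 of induction), d2-Control and d4-Control (control genotype, the same days) and ESC (day 0, control genotype). Atg7 encodes an enzyme needed to build autophagosomes. ESCs were grown on inactivated mouse embryonic fibroblasts in serum replacement medium with LIF, the MEK inhibitor PD0325901 and the GSK3 inhibitor CHIR99021, and EpiLCs were induced on fibronectin with Activin A and bFGF. The labels do not say how Atg7 was knocked out or in how many clones, and knockout cells at day 0 were not analysed here. No label ties the replicates to cultures of their own, and a p-value here measures the spread between these libraries alone, which may be technical.

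The libraries held between 14059237 and 23371546 counts, and a single library held between 55 and 15976 counts of any 1 of the 10 genes. Atg7 was at 7.16 ± 0.349 CPM (counts relative to the library's total, scaled by TMM factors) in d2-Atg7 KO and 13.6 ± 1.27 CPM in d2-Control, and at 11.9 ± 1.28 CPM in d4-Atg7 KO and 19.5 ± 0.379 CPM in d4-Control (mean ± SD, n = 3 each). Its transcript was thus lower in knockout cells but still counted. Hprt, which the E14TG2a line is known to lack, was at 195 ± 11.2 CPM in ESC, against group means of 1.78 to 2.38 CPM in the other 4 groups. A difference between ESC and any later group therefore cannot be told apart from a difference of cell line. ESC replicate 3 stood apart from the other ESC libraries and had the lowest level of the 3 ESC libraries for 10 of the 10 genes, at 0.441 (Pck2) to 0.879 (Mthfd1l) of the mean of replicates 1 and 2. Fgf5, a defining EpiLC gene, was at 1.66 ± 0.387 CPM in d4-Atg7 KO and 0.640 ± 0.308 CPM in d4-Control, close to 0, whereas the summed level of 8 EpiLC and formative markers was 886 to 935 CPM in d4-Atg7 KO, 777 to 802 CPM in d4-Control and 195 to 331 CPM in ESC. Most of that sum came from the DNA methyltransferase genes Dnmt3a and Dnmt3b, at 826 CPM together in d4-Atg7 KO, 709 CPM in d4-Control and 210.0 CPM in ESC, and the other 6 markers summed to 76.9, 78.2 and 55.0 CPM.

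Promoter windows were searched for a sequence that ATF4 is known to bind. Each window runs from 250 bases before to 50 bases after the RefSeq transcription start on GRCm38.p6, and 9 of the 10 genes had an entry, Aldh1l2 being the exception. The windows of Asns, Pck2, Mthfd2 and Shmt1 are shown because these genes span the range of responses to the Atg7 knockout, with Pck2 at the high end on both days and Shmt1 at the low end at day 4. Capitals mark TGATGNAA, the core of the composite C/EBP and ATF element, searched on both strands.
Asns, chr6:7693160-7693459, minus strand: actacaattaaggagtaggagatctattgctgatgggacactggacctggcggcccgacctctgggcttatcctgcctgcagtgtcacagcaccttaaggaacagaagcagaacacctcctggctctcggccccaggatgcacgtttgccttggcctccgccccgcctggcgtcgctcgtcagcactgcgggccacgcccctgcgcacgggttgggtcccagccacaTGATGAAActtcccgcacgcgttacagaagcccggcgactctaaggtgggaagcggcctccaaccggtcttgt
Pck2, chr14:55540016-55540315, plus strand: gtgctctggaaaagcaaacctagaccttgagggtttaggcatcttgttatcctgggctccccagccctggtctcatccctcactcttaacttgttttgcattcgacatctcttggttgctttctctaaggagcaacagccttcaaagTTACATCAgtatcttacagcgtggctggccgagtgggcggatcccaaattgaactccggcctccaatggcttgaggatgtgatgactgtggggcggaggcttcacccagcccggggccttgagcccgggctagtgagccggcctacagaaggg
Mthfd2, chr6:83317555-83317854, minus strand: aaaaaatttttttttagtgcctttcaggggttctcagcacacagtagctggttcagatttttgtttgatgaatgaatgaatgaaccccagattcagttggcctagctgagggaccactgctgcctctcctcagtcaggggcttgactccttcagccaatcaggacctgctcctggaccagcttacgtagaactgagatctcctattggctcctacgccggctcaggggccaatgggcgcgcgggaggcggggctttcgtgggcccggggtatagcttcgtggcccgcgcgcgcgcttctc
Shmt1, chr11:60811216-60811515, minus strand: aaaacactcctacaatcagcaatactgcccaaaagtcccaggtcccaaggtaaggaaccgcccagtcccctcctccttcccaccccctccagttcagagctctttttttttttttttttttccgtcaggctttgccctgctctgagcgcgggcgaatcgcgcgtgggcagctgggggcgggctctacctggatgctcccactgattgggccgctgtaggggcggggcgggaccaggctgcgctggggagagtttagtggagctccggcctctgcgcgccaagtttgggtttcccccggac
The element occurred once in the window of Asns, as TGATGAAA at position -23, and once in that of Pck2, as TTACATCA on the opposite strand at position -103, counting the base before the start as -1 and giving the leftmost base of the match. Neither entry for Psat1 nor the windows of Phgdh, Psph, Shmt1, Shmt2, Mthfd2 and Mthfd1l held these letters. Of 32851 mouse promoter windows of the same length, 3.97% held at least 1 match. No member's window held TGACGTCA (the cyclic AMP response element, 1.79% of all windows) or CACGTG (an E-box, 7.15%). CCAAT, a binding sequence of NF-Y, was found in the windows of 6 of the 9 genes (Phgdh, Psat1, Psph, Shmt1, Mthfd2 and Pck2), and 37.4% of all windows held it. Among the windows printed above it lies at positions -96, -47 and -22 in Mthfd2, at -47 in Shmt1 and at -41 in Pck2. A match in such a window is a description of letters, not of a bound site.

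At day 4 of induction, 9 of the 10 genes were higher in Atg7 KO than in control cells and none was lower (edgeR quasi-likelihood test, Benjamini-Hochberg adjusted p under 0.05). Of all tested genes, 19.5% were higher and 18.1% were lower in this comparison. At day 2, 6 of the 10 were higher in Atg7 KO and none was lower, where 20.4% of all tested genes were higher and 21.4% were lower. The median log2 fold change of the 10 genes was 0.93 at day 4 and 0.41 at day 2, against -0.01 for all tested genes on each day. The knockout range lay wholly above the control range for 9 genes and below it for 1 at day 4, where 27.6% and 27.2% of all tested genes did so, and above it for 7 and below it for 1 at day 2, where 29.6% and 31.7% did. Shmt1, the cytosolic serine hydroxymethyltransferase, was the 1 gene that did not pass the test on either day. The 3 other genes that did not pass at day 2 were Phgdh, Shmt2 and Mthfd1l. Against a null of a 1.5-fold change rather than none, 5 genes passed at day 4 and 1 (Pck2) at day 2. The share of all tested genes past this null was not computed, and the shares above belong to the plain test.

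Fibroblast markers were examined because the ESCs had been grown on such cells. Of 14 markers, 6 were higher in d2-Atg7 KO than in d2-Control and 2 were higher in d4-Atg7 KO than in d4-Control, and none was lower on either day, with medians of 1.13 and 1.17 on the log2 scale. The day 4 count is no larger a share than the 19.5% of all tested genes, whereas the day 2 count is a larger share than the 20.4% of that day. Their summed level was 2219 to 2500 CPM in d2-Atg7 KO, 1940 to 2104 CPM in d2-Control, 1687 to 1744 CPM in d4-Atg7 KO and 952 to 1072 CPM in d4-Control, and none of the 14 was at 0 in any group. Fn1, the fibronectin gene, made up most of each sum. It averaged 1642 CPM in d2-Atg7 KO and 1700 CPM in d2-Control (edgeR adjusted p = 0.477), and 1486 CPM in d4-Atg7 KO and 872 CPM in d4-Control (log2 0.77 ± 0.05, edgeR adjusted p = 8.95e-08). Without it the other 13 markers summed to 678 CPM in d2-Atg7 KO and 326 CPM in d2-Control, and to 223 CPM in d4-Atg7 KO and 158 CPM in d4-Control. Col1a1, the fibrillar collagen gene that marks fibroblasts, was at 156 to 268 CPM in d2-Atg7 KO and 80.7 to 92.3 CPM in d2-Control, and at 35.3 to 42.0 CPM in d4-Atg7 KO and 11.4 to 13.3 CPM in d4-Control. In bulk RNA, a change in the share of such cells and a change in RNA per cell cannot be told apart. With the mean log2 level of 3 collagen genes (Col1a1, Col1a2 and Col3a1) as a covariate, 9 of the 10 genes were still higher in the knockout at day 4 and 1 (Shmt1) was lower, but at day 2 the count fell to 3 higher (Asns, Aldh1l2 and Pck2) and 2 lower (Phgdh and Shmt1). That score was 6.53 to 7.50 in d2-Atg7 KO and 5.45 to 5.72 in d2-Control. At day 4 it was 4.35 to 4.79 in Atg7 KO and 3.03 to 3.22 in control. It thus did not overlap between genotypes of a day or between the days of a genotype. Within groups it spread most in ESC (8.93, 7.99 and 5.88). ESC replicate 3 was lowest there, as for the 10 genes. This fit therefore cannot separate fibroblast share from genotype, from day or from that library. The share of all tested genes past it was not computed.

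**Figure D1:**
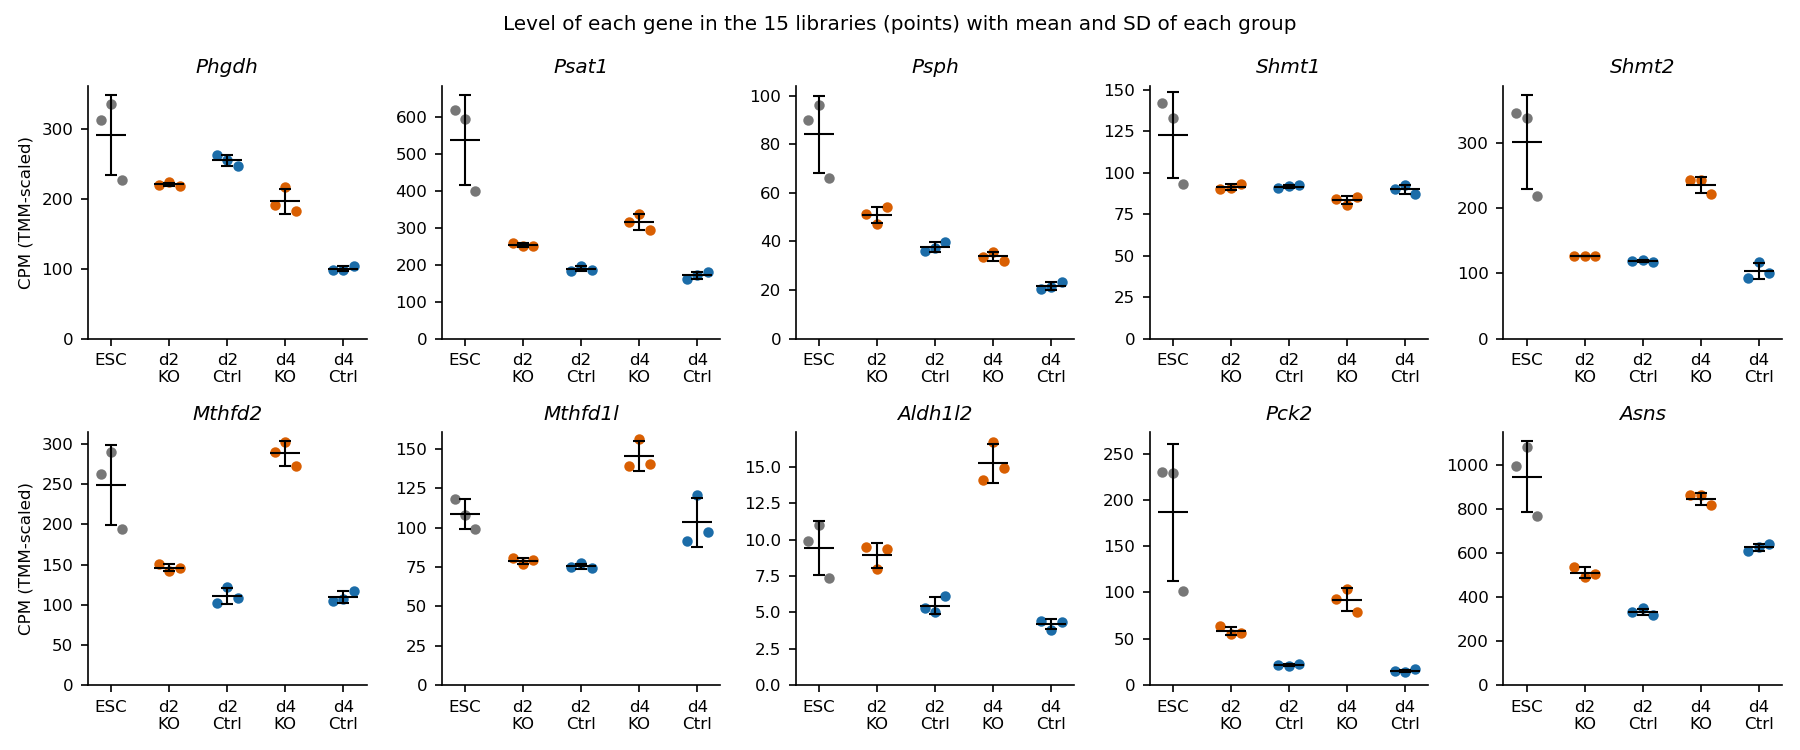
Level of each of the 10 genes in CPM (TMM-scaled, linear axis from 0) in the 15 libraries, with 1 point per library and the mean and SD of each group of 3. Pck2 was at 78.9 to 104 CPM in d4-Atg7 KO and 14.6 to 16.8 CPM in d4-Control, while Shmt1 stayed between 80.6 and 93.3 CPM in the 12 libraries after day 0.

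Pck2, the mitochondrial phosphoenolpyruvate carboxykinase, had the largest knockout effect of the 10 genes on both days. It was at 63.3, 55.5 and 55.8 CPM in d2-Atg7 KO, against 22.0, 20.6 and 22.6 CPM in d2-Control. On day 4 it was at 93.1, 104 and 78.9 CPM in d4-Atg7 KO, against 14.9, 14.6 and 16.8 CPM in d4-Control. Every knockout library was above every control library on both days. The fold change was 2.68 at day 2 (log2 1.42 ± 0.22 SE, edgeR adjusted p = 0.000109) and 5.96 at day 4 (log2 2.58 ± 0.24, edgeR adjusted p = 8.07e-07). The day 4 increase ranked 12 by fold among the 15696 tested genes. Pck2 lies on chromosome 14 from 55540266 to 55551242, plus strand (GENCODE M21, GRCm38, like the positions below), and shares 53 exonic bases with Gm10876 on the other strand. Its cytosolic counterpart Pck1, the enzyme of gluconeogenesis in liver, was between 0.199 and 0.620 CPM in the group means.

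Phgdh, the first and rate-limiting enzyme of serine synthesis, was the serine pathway gene whose response depended most on the day. On day 2 it was at 219, 223 and 219 CPM in Atg7 KO, against 263, 255 and 247 CPM in control. The day 4 levels were 191, 217 and 182 CPM in Atg7 KO, against 98.1, 97.8 and 104 CPM in control. The knockout libraries thus lay below all controls on day 2 and above all controls on day 4. The day 4 difference was 1.96-fold (log2 0.97 ± 0.11, edgeR adjusted p = 3.96e-06). The day 2 difference of -0.21 ± 0.10 on the log2 scale did not pass (edgeR adjusted p = 0.11) in the fit of all 15 libraries. It passed when only the 2 groups compared entered the fit (-0.19, edgeR adjusted p = 0.000431) and when ESC replicate 3 and d2-Atg7 KO replicate 2 were left out together (-0.22, edgeR adjusted p = 0.00693). Phgdh lies on chromosome 3 from 98313170 to 98339990, minus strand.

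Psat1, the aminotransferase of the next step, rose in the knockout on both days. It was at 260.1, 250.2 and 252 CPM in d2-Atg7 KO, against 184, 198 and 186 CPM in d2-Control. The day 4 libraries had 318, 337 and 293 CPM in Atg7 KO, against 162, 173 and 180.3 CPM in control. No knockout library overlapped a control library of its day. The fold change was 1.34 at day 2 (log2 0.42 ± 0.11, edgeR adjusted p = 0.00746) and 1.84 at day 4 (log2 0.88 ± 0.12, edgeR adjusted p = 2.32e-05). The gene lies on chromosome 19 from 15904678 to 15947337, minus strand, with the processed pseudogene Gm3329 inside its span but sharing none of its exonic bases.

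Psph, the phosphatase that releases serine, was the lowest of the serine synthesis genes per length in every group and rose on both days. It was at 51.3, 47.4 and 54.1 CPM in d2-Atg7 KO, against 36.0, 37.4 and 39.8 CPM in d2-Control. Day 4 values were 33.6, 35.7 and 32.1 CPM in Atg7 KO, against 20.4, 21.3 and 23.3 CPM in control. Again the groups of each day did not overlap. The fold change was 1.35 at day 2 (log2 0.43 ± 0.11, edgeR adjusted p = 0.00467) and 1.56 at day 4 (log2 0.64 ± 0.12, edgeR adjusted p = 0.000434). Psph (chromosome 5 from 129765558 to 129787449, minus strand) shares 452 exonic bases with Cct6a on the other strand, and no source used here says whether the counting used strand. Cct6a, a chaperonin subunit at 449 CPM in d2-Atg7 KO and 472 CPM in d2-Control, did not pass the test on either day.

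Shmt2, the mitochondrial serine hydroxymethyltransferase, was close in the day 2 groups and well apart at day 4. It was at 127, 127 and 126 CPM in d2-Atg7 KO, against 119, 120.0 and 118 CPM in d2-Control. At day 4, Shmt2 was at 243, 244 and 222 CPM in Atg7 KO, against 93.6, 117 and 101 CPM in control. The groups did not overlap on either day, but the day 2 gap was small. It was 1.06-fold at day 2 (log2 0.09 ± 0.13, edgeR adjusted p = 0.595) and 2.27-fold at day 4 (log2 1.18 ± 0.13, edgeR adjusted p = 3.71e-06). With only the day 2 groups in the fit, the day 2 difference passed at a log2 value of 0.10 (edgeR adjusted p = 0.0358). Shmt2 lies on chromosome 10 from 127517123 to 127522444, minus strand, and shares 32 exonic bases with Ndufa4l2 on the other strand.

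Shmt1, its cytosolic counterpart, was the exception. It was at 90.3, 90.7 and 93.3 CPM in d2-Atg7 KO, against 90.5, 91.8 and 92.3 CPM in d2-Control. Day 4 levels were 84.2, 80.6 and 85.6 CPM in Atg7 KO, against 90.1, 92.5 and 87.3 CPM in control. The day 2 groups overlapped, and on day 4 every knockout library lay just below every control library. Neither difference passed (0.999-fold, edgeR adjusted p = 0.993 at day 2; 0.928-fold, edgeR adjusted p = 0.442 at day 4). With the collagen covariate the log2 difference was -0.25 at day 2 (edgeR adjusted p = 0.006) and -0.37 at day 4 (edgeR adjusted p = 0.000311). Shmt1 (chromosome 11 from 60788104 to 60811718, minus strand) shares 184 exonic bases with Smcr8 on the other strand, a gene that rose in d2-Atg7 KO (32.9 CPM, against 18.1 CPM in d2-Control; log2 0.86 ± 0.11, edgeR adjusted p = 2.32e-05).

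Mthfd2, the mitochondrial methylenetetrahydrofolate dehydrogenase and cyclohydrolase that is characteristic of embryonic and dividing cells, rose on both days. It was at 151, 142 and 146 CPM in d2-Atg7 KO, against 103, 122 and 108 CPM in d2-Control. On day 4 it was at 291, 303 and 272 CPM in Atg7 KO, against 104, 107 and 118 CPM in control. The groups did not overlap on either day. The fold change was 1.32 at day 2 (log2 0.40 ± 0.11, edgeR adjusted p = 0.00763) and 2.63 at day 4 (log2 1.40 ± 0.11, edgeR adjusted p = 2.18e-07). By p-value, the day 4 difference ranked 57 of the 15696 tested genes. The gene lies on chromosome 6 from 83305691 to 83325908, minus strand.

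Mthfd1l, the mitochondrial formyltetrahydrofolate synthetase that releases formate for export to the cytosol, rose at day 4. It was at 80.9, 76.7 and 79.1 CPM in d2-Atg7 KO, against 74.8, 77.4 and 74.2 CPM in d2-Control. At day 4 its levels were 139, 156 and 141 CPM in Atg7 KO, against 91.8, 121 and 97.3 CPM in control. The groups overlapped on day 2 and were apart on day 4. The difference was 1.04-fold at day 2 (log2 0.06 ± 0.09, edgeR adjusted p = 0.59) and 1.41-fold at day 4 (log2 0.49 ± 0.09, edgeR adjusted p = 0.000314). Mthfd1l lies on chromosome 10 from 3973118 to 4167081, plus strand.

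Aldh1l2, the mitochondrial formyltetrahydrofolate dehydrogenase that oxidises the one-carbon unit to CO2 and yields NADPH, was the least abundant of the 10 genes per length and had the second largest knockout effect. It was at 9.46, 7.95 and 9.38 CPM in d2-Atg7 KO, against 5.30, 5.01 and 6.09 CPM in d2-Control. On day 4 it was at 14.1, 16.7 and 14.9 CPM in Atg7 KO, against 4.39, 3.80 and 4.36 CPM in control. The groups did not overlap on either day. The fold change was 1.63 at day 2 (log2 0.70 ± 0.15, edgeR adjusted p = 0.00161) and 3.64 at day 4 (log2 1.86 ± 0.16, edgeR adjusted p = 4.26e-07). Aldh1l2 (chromosome 10 from 83487450 to 83534140, minus strand) shares 1056 exonic bases with D10Wsu102e on the other strand, so part of its count could belong to that gene. D10Wsu102e fell in the knockout, by 1.03 ± 0.11 on the log2 scale at day 2 (17.5 CPM in Atg7 KO, 35.6 CPM in control; edgeR adjusted p = 2.73e-06) and by 0.46 ± 0.10 at day 4 (68.7 CPM in Atg7 KO, 94.8 CPM in control; edgeR adjusted p = 0.00164). In other comparisons it moved as Aldh1l2 did, rising by 1.98 ± 0.11 in d4-Atg7 KO over d2-Atg7 KO (edgeR adjusted p = 4.44e-10) and falling by 0.76 ± 0.10 in d2-Control against ESC (edgeR adjusted p = 6.13e-06). D10Wsu102e fell less in the knockout at day 4 than at day 2, by 0.56 ± 0.15 (edgeR adjusted p = 0.007). It rose where Aldh1l2 fell in d4-Control, by 1.41 ± 0.10 over d2-Control (edgeR adjusted p = 4.62e-09) and by 0.66 ± 0.10 over ESC (edgeR adjusted p = 2.02e-05). How much of the Aldh1l2 count comes from the shared bases was not tested.

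Asns, the synthetase that makes asparagine from aspartate with glutamine as nitrogen donor, was the most abundant of the 10 genes per length in each of the 5 groups. It was at 539, 494 and 503 CPM in d2-Atg7 KO, against 332, 348 and 319.5 CPM in d2-Control. On day 4 it was at 863, 866 and 817 CPM in Atg7 KO, against 609, 629.9 and 642 CPM in control. All knockout libraries were above all controls of their day. The fold change was 1.54 at day 2 (log2 0.62 ± 0.09, edgeR adjusted p = 4.7e-05) and 1.35 at day 4 (log2 0.44 ± 0.09, edgeR adjusted p = 0.000937). Asns was the 1 gene of the 9 that rose at day 4 whose fold change was larger at day 2. It lies on chromosome 6 from 7675169 to 7693254, minus strand.

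**Figure D2:**
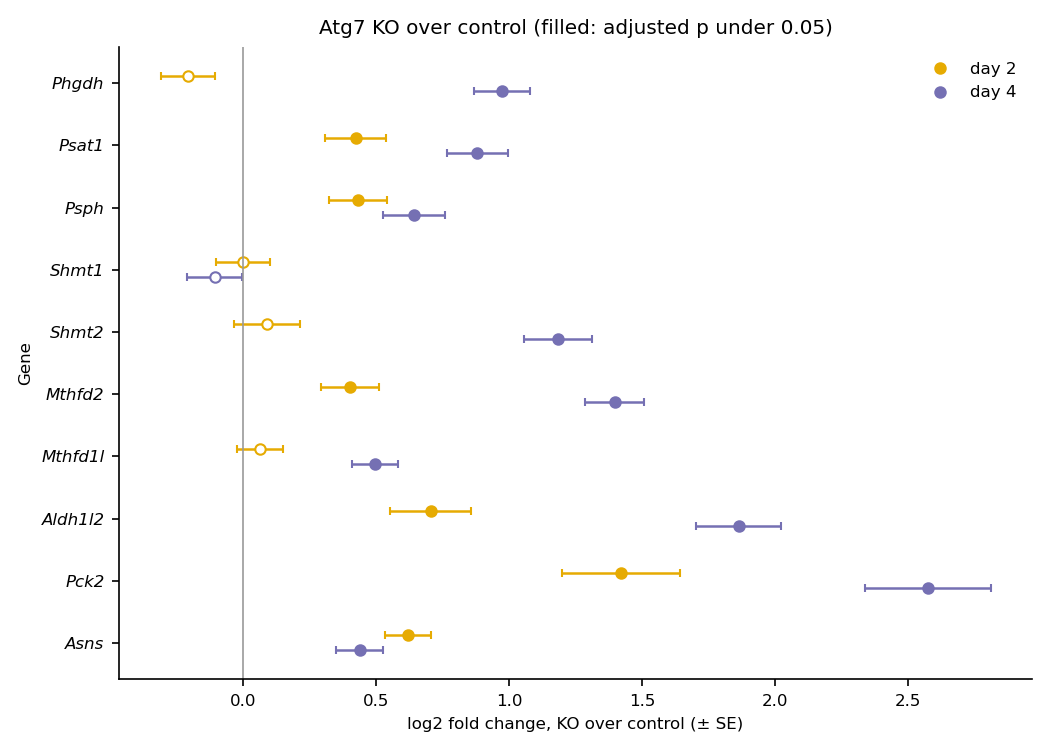
Log2 fold change of Atg7 KO over control with its SE for each gene at days 2 and 4, filled where the adjusted p was under 0.05. The day 4 values reach 2.58 for Pck2 and 1.86 for Aldh1l2, and those of Shmt1 lie at 0 or just below on both days.

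Whether the knockout effect differed between the days was tested as the day 4 effect minus the day 2 effect in the same fit. It was larger at day 4 for 7 of the 10 genes and smaller for none, where 18.6% of all tested genes were higher and 17.6% lower in this term. The difference in log2 fold change was 1.18 ± 0.15 for Phgdh (edgeR adjusted p = 1.83e-05), 1.16 ± 0.22 for Aldh1l2 (edgeR adjusted p = 0.000716) and 1.15 ± 0.32 for Pck2 (edgeR adjusted p = 0.0102). The mitochondrial folate genes gave 1.09 ± 0.18 for Shmt2 (edgeR adjusted p = 0.000198), 1.00 ± 0.15 for Mthfd2 (edgeR adjusted p = 0.000124) and 0.43 ± 0.12 for Mthfd1l (edgeR adjusted p = 0.0118). All 4 mitochondrial folate enzymes were among the 7. Psat1 passed narrowly at 0.46 ± 0.16 (edgeR adjusted p = 0.0364) and lost the call in 10 of the 12 fits that left out 1 library of the day 2 and day 4 groups, with values between 0.41 and 0.51. It also lost the call with upper quartile scaling (0.41, edgeR adjusted p = 0.0508) and the stricter filter (0.38, edgeR adjusted p = 0.0735). Psph (0.21 ± 0.16, edgeR adjusted p = 0.329), Shmt1 (-0.11 ± 0.15, edgeR adjusted p = 0.603) and Asns (-0.18 ± 0.12, edgeR adjusted p = 0.272) did not pass. For Asns the difference passed, at -0.21, when ESC libraries were left out of the fit (edgeR adjusted p = 0.0143). The genes of chromosome 6, which holds Asns and Mthfd2, had a median of -0.17 in this term, and relative to it Asns stood at -0.01 and Mthfd2 at 1.17. Chromosome 18, which holds none of the 10 genes, had a median of -0.59 in this term. Its median in Atg7 KO over control was 0.56 at day 2 and 0.01 at day 4. The day 2 groups thus differed across a whole chromosome besides Atg7, and the cause was not tested.

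Against ESC, 9 of the 10 genes were lower in d2-Control and none was higher. Of all tested genes, 34.9% were lower and 35.6% higher in this comparison. Because of the Hprt levels given above, these differences cannot be told apart from a difference of cell line. Pck2 averaged 21.7 CPM in d2-Control, against 229.9, 229 and 101 CPM in ESC, and fell by 3.10 ± 0.23 on the log2 scale (edgeR adjusted p = 4.39e-09). Psat1 averaged 189.5 CPM in d2-Control, against 620.4, 597 and 399 CPM in ESC, and fell by 1.51 ± 0.12 (edgeR adjusted p = 7.97e-09). Asns averaged 333 CPM in d2-Control, against 994, 1081 and 767 CPM in ESC, and fell by 1.51 ± 0.09 (edgeR adjusted p = 3.7e-10). These 3 genes had the largest decreases of the set. Shmt2 averaged 119 CPM in d2-Control, against 347, 339 and 218 CPM in ESC, and fell by 1.34 ± 0.13 (edgeR adjusted p = 8.84e-08). Mthfd2 averaged 111 CPM in d2-Control, against 263, 291 and 194 CPM in ESC, and fell by 1.17 ± 0.11 (edgeR adjusted p = 8.1e-08). Psph averaged 37.7 CPM in d2-Control, against 90.1, 96.2 and 66.1 CPM in ESC, and fell by 1.16 ± 0.11 (edgeR adjusted p = 8.91e-08).

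Smaller decreases were seen for the remaining folate enzymes. Aldh1l2 averaged 5.47 CPM in d2-Control, against 9.87, 11.0 and 7.39 CPM in ESC, and fell by 0.78 ± 0.16 (edgeR adjusted p = 0.000275). Mthfd1l averaged 75.5 CPM in d2-Control, against 118, 108 and 99.4 CPM in ESC, and fell by 0.52 ± 0.09 (edgeR adjusted p = 5.3e-05). Shmt1 averaged 91.5 CPM in d2-Control, against 142, 133 and 93.3 CPM in ESC, and fell by 0.42 ± 0.10 (edgeR adjusted p = 0.00154). Of the 10 genes, Phgdh was the 1 whose groups overlapped. It averaged 255 CPM in d2-Control, against 313, 335 and 227 CPM in ESC, and missed the threshold (-0.19 ± 0.10, edgeR adjusted p = 0.102). Without ESC replicate 3 it passed at -0.34 (edgeR adjusted p = 2.31e-05). The same fibroblast markers were at 2256 to 4104 CPM summed in ESC, above d2-Control, and 8 of the 14 were lower in d2-Control than in ESC. With the collagen covariate Shmt1 lost its call in this comparison (-0.04, edgeR adjusted p = 0.698). The collagen score did not overlap between d2-Control and ESC, so that fit cannot separate it from the difference between these groups.

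Between days 2 and 4 of control cells the genes moved in both directions. Asns (log2 0.91 ± 0.09, edgeR adjusted p = 1.33e-07) and Mthfd1l (0.45 ± 0.09, edgeR adjusted p = 0.000239) rose in d4-Control over d2-Control, where 33.9% of all tested genes were higher. Phgdh fell by 1.35 ± 0.11 (edgeR adjusted p = 1.07e-08) and Psph fell by 0.80 ± 0.12 (edgeR adjusted p = 1.19e-05), where 34.6% of all tested genes were lower. Thus 2 genes rose, and 3 fell when Aldh1l2 is counted. Aldh1l2 fell by 0.39 ± 0.17 (edgeR adjusted p = 0.0479), and lost the call in 5 of 6 fits without 1 library of the groups compared, with values of -0.45 to -0.30. Psat1, Shmt1, Shmt2, Mthfd2 and Pck2 did not pass, though Psat1, Shmt2 and Pck2 were lower in d4-Control when only the groups compared were fitted, which raised the count of lower genes to 6. The genes of chromosome 6 had a median of 0.39 on the log2 scale in this comparison. Relative to that median, Asns stood at 0.52 and Mthfd2 at -0.40. Of the 14 fibroblast markers 6 were lower in d4-Control than in d2-Control, and with the collagen covariate 6 of the 10 genes rose, with Shmt1 at 0.43 (edgeR adjusted p = 0.000475) and Psat1 at 0.32 (edgeR adjusted p = 0.0246). The collagen score did not overlap between these groups (5.45 to 5.72 in d2-Control, 3.03 to 3.22 in d4-Control). That fit therefore cannot separate it from day, and the share of all tested genes past it was not computed.

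In the knockout cells most of the genes rose over the same days. In d4-Atg7 KO over d2-Atg7 KO, 7 of the 10 genes rose and 1 fell, where 31.2% of all tested genes were higher and 32.0% lower. Mthfd2 rose by 0.98 ± 0.11 (edgeR adjusted p = 8.11e-07), Shmt2 by 0.90 ± 0.13 (edgeR adjusted p = 1.04e-05) and Mthfd1l by 0.88 ± 0.09 (edgeR adjusted p = 2.42e-07) on the log2 scale. Aldh1l2 rose by 0.77 ± 0.15 (edgeR adjusted p = 0.000216), Asns by 0.73 ± 0.09 (edgeR adjusted p = 2.2e-06) and Pck2 by 0.66 ± 0.21 (edgeR adjusted p = 0.011). Psat1 rose by 0.32 ± 0.11 (edgeR adjusted p = 0.0231), a call lost in 4 of 6 fits without 1 library. Relative to the chromosome 6 median of 0.23, Mthfd2 stood at 0.75 and Asns at 0.50. The Pck2 call was lost without d4-Atg7 KO replicate 2 (0.56, edgeR adjusted p = 0.0537). Psph was the gene that fell, by 0.59 ± 0.11 (edgeR adjusted p = 0.000205), and it fell in control cells as well. Phgdh (-0.17 ± 0.10, edgeR adjusted p = 0.168) and Shmt1 (-0.13 ± 0.10, edgeR adjusted p = 0.276) missed the threshold. Of the 14 fibroblast markers 8 were lower in d4-Atg7 KO than in d2-Atg7 KO, and with the collagen covariate Psph no longer passed (-0.28, edgeR adjusted p = 0.0934) and Shmt1 rose (0.31, edgeR adjusted p = 0.00684). The collagen score did not overlap between these groups, so that fit cannot separate it from day.

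**Figure D3:**
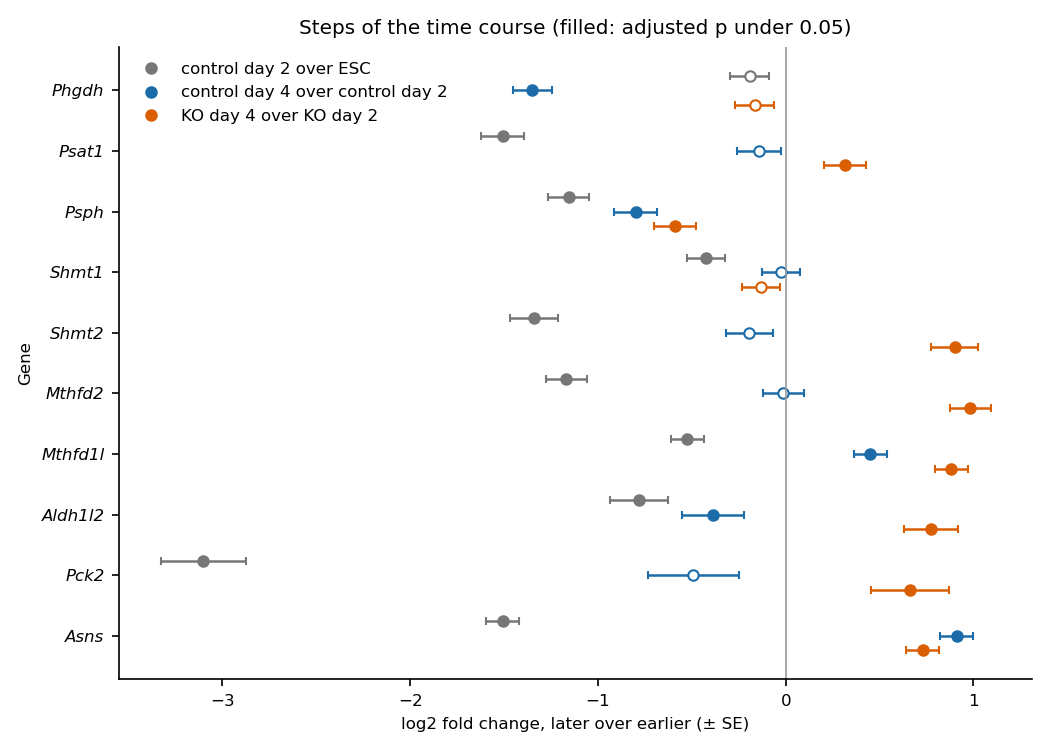
Log2 fold change of the later over the earlier group with its SE for each gene, for d2-Control over ESC, d4-Control over d2-Control and d4-Atg7 KO over d2-Atg7 KO, filled where the adjusted p was under 0.05. Between days 2 and 4 Phgdh fell by 1.35 in control cells, and Mthfd2 rose by 0.98 in Atg7 KO cells.

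In d4-Control against ESC, 9 of the 10 genes were lower and none was higher, where 35.6% of all tested genes were lower and 36.2% higher. A difference of cell line cannot be told apart here either. Pck2 was at 0.0828 of its ESC level (log2 -3.59 ± 0.24, edgeR adjusted p = 9.62e-10), Psph at 0.258 (edgeR adjusted p = 2.25e-10) and Psat1 at 0.319 (edgeR adjusted p = 2.16e-09). Asns fell by 0.60 ± 0.09 on the log2 scale (edgeR adjusted p = 1.26e-05). The chromosome 6 median was 0.44 in this comparison, and relative to it Asns stood at -1.03 and Mthfd2 at -1.62. Mthfd1l overlapped its ESC level and did not pass (0.950-fold, edgeR adjusted p = 0.461). Of the 14 fibroblast markers 10 were lower in d4-Control than in ESC, and with the collagen covariate Asns (-0.08, edgeR adjusted p = 0.739) and Aldh1l2 (-0.72, edgeR adjusted p = 0.131) lost their calls and Shmt1 turned to 0.39 (edgeR adjusted p = 0.0353). Here too the collagen score did not overlap between the groups, so that fit cannot separate it from their difference. By group mean, 7 of the 10 genes were highest in ESC and 3 (Mthfd2, Mthfd1l and Aldh1l2) in d4-Atg7 KO. The lowest group was d4-Control for 7 genes, d2-Control for Mthfd1l and Asns, and d4-Atg7 KO for Shmt1. Neighbours in this order overlapped between d4-Atg7 KO and ESC for Mthfd2, Shmt2, Pck2 and Asns, and between d4-Control and d2-Control for Mthfd2. Mthfd1l overlapped between d4-Control and ESC and between the day 2 groups, Aldh1l2 between d2-Atg7 KO and ESC, and Phgdh between d2-Control and ESC. For Shmt1 both day 2 groups and d4-Control overlapped, and Psat1 and Psph had no overlapping neighbours.

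Per length, Asns was the highest of the 10 genes in every group and Aldh1l2 the lowest. CPM were divided by the union of exons in kilobases (RPKM), since only such levels can be set beside each other between genes. Asns had 310 RPKM in d4-Atg7 KO, 229 RPKM in d4-Control and 346 RPKM in ESC, where Aldh1l2 had 2.03, 0.557 and 1.26 RPKM. Psat1 and Phgdh, 2 enzymes of consecutive steps, were at 127 and 117 RPKM in ESC, at 44.5 and 103 RPKM in d2-Control and at 40.4 and 40.3 RPKM in d4-Control. The ratio of Psat1 to Phgdh per length was 0.673 ± 0.0193 in d2-Atg7 KO and 0.435 ± 0.0229 in d2-Control, and 0.941 ± 0.0316 in d4-Atg7 KO and 1.00 ± 0.0353 in d4-Control (SD, n = 3 each). With the longest transcript as the length, the rank of 0 to 4 of the 10 genes changed within a group, and the first and the last stayed the same. In d4-Atg7 KO, Psat1 was then at 121 RPKM and Phgdh at 104 RPKM, against 74.3 and 79.1 RPKM with the union of exons. The size of a ratio between 2 genes thus depends on the length used, while the order of the groups in that ratio does not.

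Within the serine hydroxymethyltransferases, the mitochondrial enzyme's transcript outweighed the cytosolic one in every library, and by more in knockout than in control libraries of the same day. The ratio of Shmt2 to Shmt1 per length was 3.54 ± 0.273 in d4-Atg7 KO and 1.44 ± 0.145 in d4-Control, and 1.73 ± 0.0367 in d2-Atg7 KO and 1.62 ± 0.0292 in d2-Control (SD, n = 3 each). In ESC it was 3.05 ± 0.134. No library of d4-Atg7 KO was below 3.24 and no library of d4-Control above 1.59. The ratio of Mthfd2 to Mthfd1l was 2.53 ± 0.109 in d4-Atg7 KO and 1.37 ± 0.214 in d4-Control, 2.36 ± 0.0114 in d2-Atg7 KO and 1.86 ± 0.126 in d2-Control, and 2.91 ± 0.473 in ESC. With 3 libraries a group, an exact permutation test of such a ratio cannot go below 0.10, so these ratios are given as values.

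**Figure D4:**
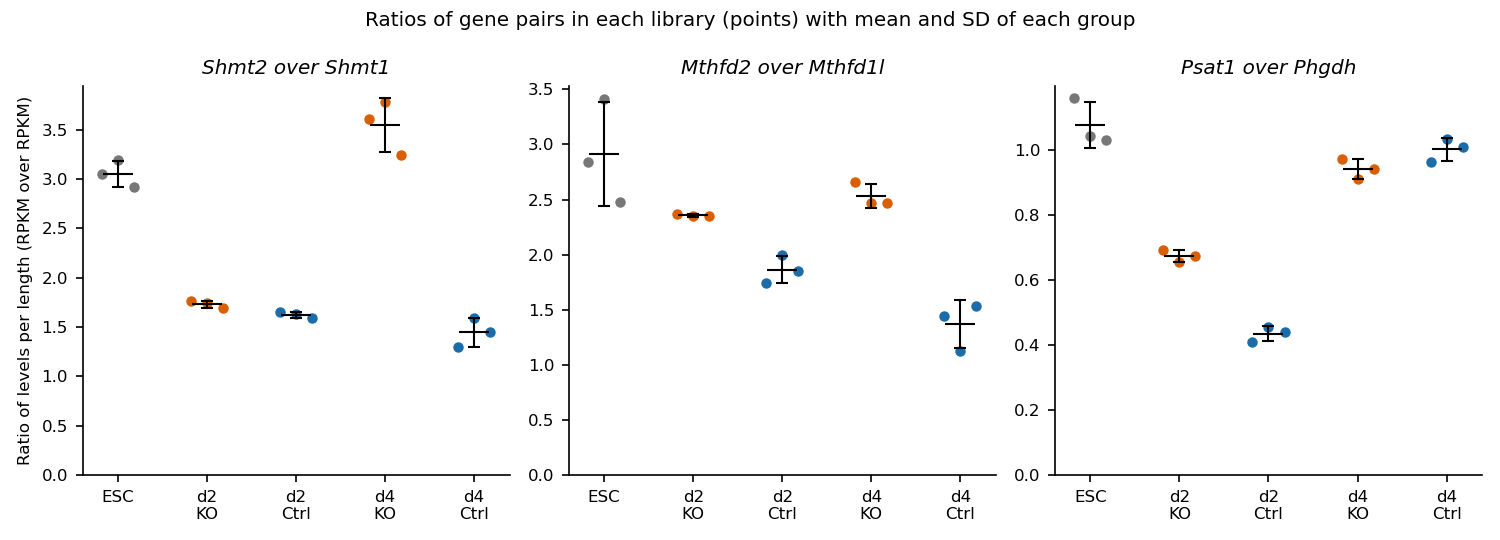
Ratio of the levels per length of 3 gene pairs in each library (points), with the mean and SD of each group of 3, on axes from 0. Shmt2 over Shmt1 was 3.24 to 3.78 in d4-Atg7 KO and 1.30 to 1.59 in d4-Control.

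Of 4 paralogs outside the set, none rose past the test in the knockout on either day. Mthfd1, the cytosolic enzyme that handles the same folate steps, fell by 0.30 ± 0.06 on the log2 scale at day 2 (419 ± 8.89 CPM in Atg7 KO, 516 ± 17.8 CPM in control; edgeR adjusted p = 0.000612). At day 4 it was at 419 ± 2.83 CPM in Atg7 KO and 439 ± 7.60 CPM in control (edgeR adjusted p = 0.403). Aldh1l1, the cytosolic counterpart of Aldh1l2, was at 8.49 CPM in d4-Atg7 KO and 7.83 CPM in d4-Control (edgeR adjusted p = 0.408), and at 20.6 CPM in ESC. Mthfd2l, the close relative of Mthfd2, reached at most 2.09 CPM in a group mean.

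Atf4 itself was higher in the knockout on both days. It was at 174, 173 and 172 CPM in d2-Atg7 KO, against 93.7, 113 and 91.3 CPM in d2-Control, and at 258, 281 and 224 CPM in d4-Atg7 KO, against 128, 141 and 151 CPM in d4-Control. The groups did not overlap on either day. The difference was 0.80 ± 0.12 on the log2 scale at day 2 (edgeR adjusted p = 7.85e-05) and 0.86 ± 0.12 at day 4 (edgeR adjusted p = 4.53e-05), and the interaction with day was small beside its error (0.05 ± 0.17, edgeR adjusted p = 0.833). Of 18 genes of the ATF4 pathway, Atf4 included, 12 rose and 2 fell at day 4 (median log2 0.67). At day 2, 11 rose and 1 fell (median 0.23). Of all tested genes, 19.5% rose and 18.1% fell at day 4, and 20.4% rose and 21.4% fell at day 2. The 18 mix genes that act upstream of Atf4 with its targets. The 2 that fell at day 4 were Eif2s1 (-0.21 ± 0.05, edgeR adjusted p = 0.00408) and Eif2ak2 (-0.25 ± 0.09, edgeR adjusted p = 0.0305), both upstream. Nupr1, a stress-induced transcriptional regulator, rose by 2.38 ± 0.18 at day 4 (27.8 CPM in Atg7 KO, 5.35 CPM in control; edgeR adjusted p = 1.8e-07), and Trib3, a pseudokinase that restrains ATF4, by 1.88 ± 0.14 (64.3 CPM in Atg7 KO, 17.4 CPM in control; edgeR adjusted p = 1.15e-07). Chac1, a glutathione-degrading enzyme, rose by 1.80 ± 0.29 at day 2 (10.6 CPM in Atg7 KO, 3.04 CPM in control; edgeR adjusted p = 0.000131). In d4-Control against ESC, 10 of the 18 fell and 2 rose, where 35.6% of all tested genes fell and 36.2% rose, and ESC averages were 75.7 CPM for Nupr1 and 106 CPM for Trib3.

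Of 15 other tested genes of serine and glycine metabolism, 3 rose and 2 fell at day 4, close to the shares of all tested genes given above, and 1 rose and 6 fell at day 2. Their median log2 fold change was 0.09 at day 4 and -0.12 at day 2, against -0.01 for all tested genes on each day. Slc1a4, a neutral amino acid carrier that takes up serine, rose by 1.67 ± 0.13 at day 4 (73.6 CPM in Atg7 KO, 23.2 CPM in control; edgeR adjusted p = 1.8e-07), and Cth, which makes cysteine from cystathionine, by 1.19 ± 0.16 (229.9 CPM in Atg7 KO, 101 CPM in control; edgeR adjusted p = 2.7e-05). Gldc, the decarboxylase of the glycine cleavage system, fell by 1.41 ± 0.13 at day 2 (113 CPM in Atg7 KO, 301 CPM in control; edgeR adjusted p = 6.26e-07). Of 17 genes of folate uptake, folate enzymes and thymidylate synthesis, 4 rose and 2 fell at day 4 (median 0.04), and 2 rose and 5 fell at day 2 (median -0.10). Slc25a32, the mitochondrial folate carrier, fell by 0.43 ± 0.09 on both days (22.6 CPM in Atg7 KO and 30.4 CPM in control at day 2; edgeR adjusted p = 0.000902).

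Of 16 genes of aspartate, glutamate, proline and arginine synthesis, 7 rose and 3 fell at day 4 (median 0.10), and 3 rose and 4 fell at day 2 (median -0.01). For this list and those below, the shares of all tested genes were 19.5% risen and 18.1% fallen at day 4. At day 2 they were 20.4% risen and 21.4% fallen. Gpt2 (1.32 ± 0.22, edgeR adjusted p = 0.000188), Aldh18a1 (1.22 ± 0.11, edgeR adjusted p = 5.42e-07) and Pycr1 (1.18 ± 0.10, edgeR adjusted p = 3.83e-07), enzymes of alanine and proline synthesis, rose in d4-Atg7 KO. Among those that fell at day 4 were Oat (-0.48 ± 0.06, edgeR adjusted p = 1.15e-05) and Glul (-0.30 ± 0.08, edgeR adjusted p = 0.00606). Glud1 (-0.82 ± 0.07, edgeR adjusted p = 2.69e-07) and Got2 (-0.52 ± 0.05, edgeR adjusted p = 1.94e-06) were among those that fell at day 2. Of 11 genes around phosphoenolpyruvate and 3-phosphoglycerate, the source of serine carbon, 2 rose and 5 fell at day 4 (median -0.44), and none rose and 4 fell at day 2 (median -0.26). Pgk1, which makes 3-phosphoglycerate in glycolysis, fell by 1.59 ± 0.14 at day 4 (196 CPM in Atg7 KO, 593 CPM in control; edgeR adjusted p = 5.66e-07), while Pcx, the pyruvate carboxylase, rose by 0.96 ± 0.07 (64.3 CPM in Atg7 KO, 33.2 CPM in control; edgeR adjusted p = 1.16e-07). In the users of one-carbon units, purine synthesis de novo had 3 risen and 4 fallen of 13 genes at day 4 and 0 risen and 5 fallen at day 2, and the methionine cycle had 2 risen and 3 fallen of 12 at day 4 and 5 risen and 5 fallen at day 2. The medians of the purine genes were 0.00 at day 4 and -0.06 at day 2, and those of the methionine cycle 0.09 and 0.08. In d4-Control against ESC, 9 of the 13 purine genes fell and 1 rose (35.6% and 36.2% of all tested genes), with Pfas falling by 1.13 ± 0.05 (172 CPM in d4-Control, 376 CPM in ESC; edgeR adjusted p = 3.26e-12).

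**Figure D5:**
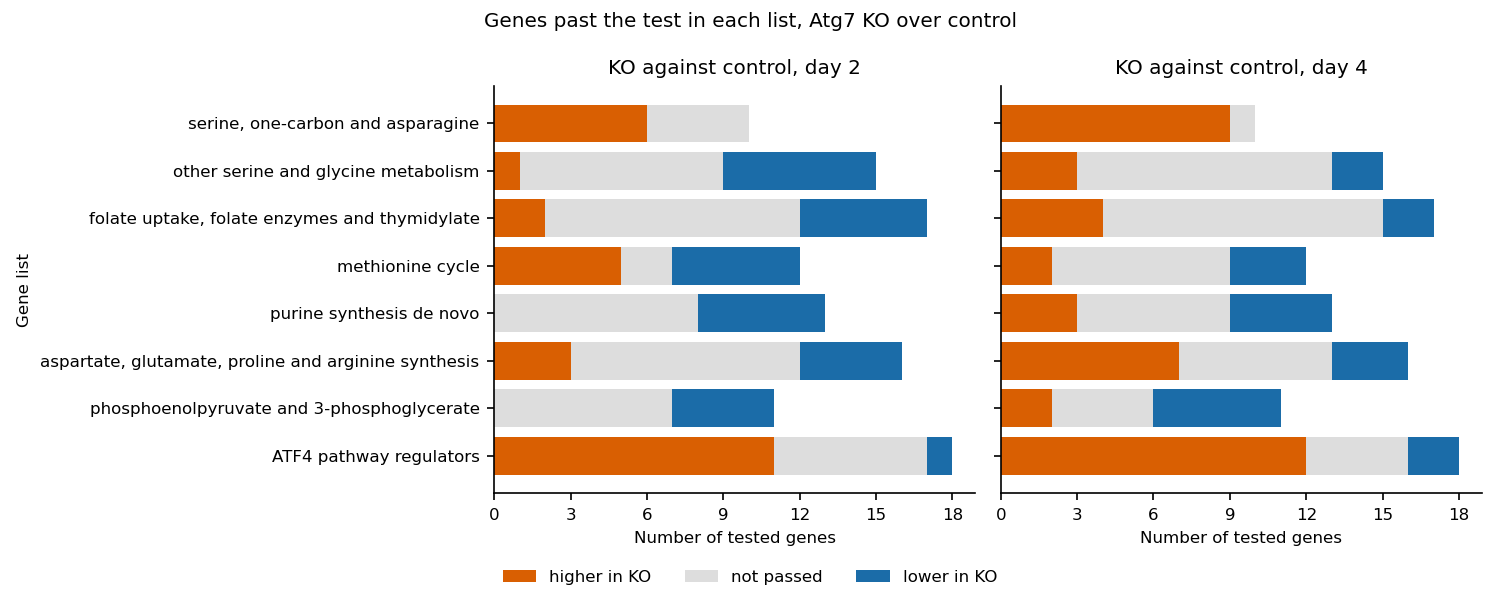
Number of tested genes in each list that were higher, lower or past no threshold in Atg7 KO over control at day 2 and day 4, with the serine, one-carbon and asparagine genes on top. Of those 10 genes 9 were higher at day 4, where the 15 other genes of serine and glycine metabolism had 3 higher and 2 lower.

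The genes with the most similar pattern were sought among 10882 genes with a mean of at least 5 CPM, by the root mean square difference of the 5 group means in log2 CPM after centring. Shmt2 was closest to Slc7a5, an amino acid exchanger, at 0.11 and to Aars, the alanyl-tRNA synthetase, at 0.13, with Aldh18a1 next at 0.15. Mthfd2 was closest to the amino acid carriers Slc7a1 (0.09) and Slc7a8 (0.09). Pck2 was closest to Nupr1 at 0.17. Atf4 was rank 15 for Pck2 at 0.64, rank 272 for Psat1 and 368 for Shmt2, and between rank 1047 (Mthfd2) and 9472 (Shmt1) for the remaining 7 genes. Aldh1l2 had Dpysl3 (0.22) and Slc6a9, a glycine transporter (0.23), and among the 10 genes Mthfd2 was its rank 4 at 0.26. Shmt1 lay closest to Eef1e1 and Rps10, genes of translation, both at 0.02. The nearest genes were Mta1 for Phgdh (0.11), Zbtb45 for Psat1 (0.06), Zbtb8a for Psph (0.10), Stau2 for Mthfd1l (0.04) and Etv6 for Asns (0.06). The smaller values of Shmt1 and Mthfd1l go with the narrow range of their own levels. These likeness values rest on 5 group means that share the same 15 libraries and carry no test.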

How the data were processed

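Poly(A) RNA of 15 libraries (5 groups of 3) was measured by sequencing, and the authors deposited raw read counts per gene, 1 table per library. The submitters' processing notes name STAR, featureCounts, StringTie and DESeq2 and the builds mm10 and GRCm38, without versions or roles, and give no strandedness. Groups were taken from the GEO labels. A chi-square test of the counts found every pair of libraries within a group to differ beyond sampling noise (3.20 to 31.8 per degree of freedom), so each counted as 1 replicate. Genes were filtered with filterByExpr (minimum count 10, minimum total 15) and fitted once over all 15 libraries with edgeR 4.0.16 in R 4.3.3 (TMM, quasi-likelihood F test, Benjamini-Hochberg adjustment over all tested genes, threshold 0.05). CPM are TMM-scaled. The script was tested on simulated data. Alternatives changed the scaling (RLE, upper quartile), the filter (none, or 10 CPM in 3 libraries), the tool (DESeq2 1.42.0), the libraries (only those of a comparison, 13 of them, or each left out in turn), the model (a replicate block, a collagen covariate) and the null (a 1.5-fold change). The 10 genes, the pathway and marker lists and the alternatives were chosen with earlier results of these data known. Besides the 10 genes, the text names up to 3 risen and 3 fallen genes of a list by smallest p among those with at least 5 CPM, paralogs, overlapping genes and label checks. A gene that this rule would name is not reported here. Fn1, Dnmt3a and Dnmt3b were singled out after their values were seen. At these depths intervals cover the spread between libraries only. Positions are from GENCODE M21 and promoters from RefSeq (GRCm38.p6).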

Additional observations from a re-analysis of the deposited data

Results flagged for a closer look

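The Atg7 knockout effect differed between day 4 and day 2, by a test of the difference itself, for 7 of the 10 genes, where 18.6% of all tested genes were higher and 17.6% lower in this term. The day 4 effect minus the day 2 effect on the log2 scale was 1.18 for Phgdh, 1.16 for Aldh1l2, 1.15 for Pck2, 1.09 for Shmt2, 1.00 for Mthfd2, 0.46 for Psat1 and 0.43 for Mthfd1l. Psat1 lost its call in 10 of 12 fits without 1 library, with upper quartile scaling (adjusted p = 0.0508) and with the stricter filter (adjusted p = 0.0735). For Phgdh the day 4 effect was positive (0.97) and the day 2 estimate negative (-0.21, not past the test), whereas for the other 6 genes both estimates were positive. The genes of chromosome 18, which holds none of the 10, had a median of -0.59 in this term, and its cause was not tested.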

How the results depend on the processing

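Leaving out each library in turn left the numbers of genes higher in Atg7 KO at 6 to 6 on day 2 and 9 to 9 on day 4, with none (0 to 0) lower on either day. The number with a larger effect at day 4 was 6 to 7, with 0 to 0 smaller. The number risen in d4-Atg7 KO over d2-Atg7 KO was 5 to 7, with 1 to 1 fallen. The number fallen in d4-Control against d2-Control was 2 to 3, with 2 to 2 risen, and that fallen in d2-Control or d4-Control against ESC was 9 to 10, with 0 to 0 risen. RLE and upper quartile scaling, no filter, the stricter filter and DESeq2 kept every count within 1.5 times. Same-numbered libraries had correlations of -0.201 to 0.178 in their deviations from the group mean. The best-correlated partner had the same number for every replicate of ESC and d2-Control, and in no other pair of groups. With 3 libraries a group, these values cannot settle whether the numbers pair the libraries. The replicate block changed 1 call, that of Aldh1l2 in d4-Control over d2-Control (-0.39, adjusted p = 0.0653).

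With only the groups compared, or with 13 libraries, the lower counts were 1 for the knockout at day 2, 1 for the difference between days, 6 for d4-Control over d2-Control and 3 for d4-Atg7 KO over d2-Atg7 KO. Against a 1.5-fold change, 1 gene was higher in the knockout at day 2 and 5 at day 4, 4 had a larger effect at day 4, 1 rose in d4-Control over d2-Control, and 3 rose and 0 fell in d4-Atg7 KO over d2-Atg7 KO. With the collagen covariate, 3 were higher and 2 lower in the knockout at day 2 and 1 was lower at day 4, 6 rose in d4-Control over d2-Control, 1 rose in d4-Control over ESC, and 0 fell in d4-Atg7 KO over d2-Atg7 KO. The cause was not tested, and the collagen score did not overlap between genotypes of the same day. Nor did it overlap between the groups of any time step given here, so that fit cannot separate it from day. No share of all tested genes was computed for these alternatives.

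Reversals by scaling, filter, tool or library concerned estimates near 0. Shmt1 in the knockout at day 2 was 0.00 with RLE, no filter and DESeq2 and 0.01 with upper quartile scaling, the stricter filter, its own groups and 13 libraries (-0.01 to 0.01 without single libraries). In d4-Control over d2-Control, Mthfd2 was 0.02 with RLE and DESeq2, 0.03 with upper quartile, 0.04 with the stricter filter, 0.00 with its own groups and -0.07 to 0.05 without single libraries, and Shmt1 was 0.01 with RLE and DESeq2, 0.02 with upper quartile and 0.03 with the stricter filter. Mthfd1l in d4-Control over ESC was 0.01 with upper quartile, 0.03 with the stricter filter and -0.20 to 0.01 without single libraries. The collagen covariate reversed 12 values: Mthfd1l (-0.01) and Shmt2 (-0.18) in the knockout at day 2, Phgdh (0.12) in d2-Control over ESC, Mthfd2 (0.33), Shmt2 (0.30), Shmt1 (0.43), Pck2 (0.36) and Psat1 (0.32) in d4-Control over d2-Control, Mthfd1l (0.16) and Shmt1 (0.39) in d4-Control over ESC, and Phgdh (0.20) and Shmt1 (0.31) in d4-Atg7 KO over d2-Atg7 KO. At 55 counts, the lowest of any gene and library, Aldh1l2 is the value that depth limits most.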

Other observations

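Markers of other lineages in the same libraries were counted for reference. Of all tested genes, 20.4% rose and 21.4% fell in Atg7 KO at day 2, and 19.5% rose and 18.1% fell at day 4. Of 5 tested trophoblast markers, 5 were lower in d2-Atg7 KO and 4 in d4-Atg7 KO than in control cells, and their summed level (7 genes) was 290 to 378 CPM in d4-Atg7 KO and 491 to 651 CPM in d4-Control. Of 10 naive pluripotency markers, 9 rose and none fell in d4-Atg7 KO over d4-Control, and 5 rose and 1 fell at day 2. Their summed level was 2298 to 2637 CPM in d4-Atg7 KO and 1533 to 1597 CPM in d4-Control. Of 7 endoderm markers, 3 rose and none fell in d2-Atg7 KO over d2-Control, with a summed level of 178 to 197 CPM in d2-Atg7 KO and 144 to 163 CPM in d2-Control. At day 4, 1 rose and none fell, and the sums overlapped, at 389 to 434 CPM in Atg7 KO and 318 to 425 CPM in control. The part of these markers in the results on the 10 genes was not tested.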
